A study of Mus musculus with 35 samples.

Results

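The metallothioneins Mt1 and Mt2 and the zinc transporters Slc30a1, Slc39a10 and Slc39a14 were followed in mouse lung across 35 arrays in 7 groups of 5. The members were chosen as all probes whose RefSeq accession mapped to one of these 5 symbols. That gave 5 probes, 1 for each gene, of 55681 probes on the array, and they stood for 5 of the 15621 named genes tested. Female C57BL/6 mice of 5 to 7 weeks were given NRCWE-043, NRCWE-044 or NRCWE-045 once into the trachea, at 18 or 54 µg in 40 µl, and lungs were taken 24 h later. The controls received 0 µg of material, and what else they received is not stated in the labels. The 3 code-named materials are called nanomaterials in the title of the series. RNA came from random sections of whole lung. The labels do not say that the 5 arrays of a group are 5 mice, and p-values therefore reflect only how far these samples spread, which may in part be technical.

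Metallothioneins are small cysteine-rich proteins that bind zinc and copper, and their transcripts are known to rise with metal load, glucocorticoids, oxidative stress and inflammatory cytokines. Cells keep free zinc low by pairing them with 2 transporter families. SLC30 proteins move zinc out of the cytosol, and SLC39 proteins, also called ZIP proteins, move it in. In mice the metal-sensing factor MTF1 binds metal response elements upstream of Mt1, Mt2 and Slc30a1, while Slc39a14 and the metallothioneins are known targets of interleukin 6 signalling in liver.

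In GRCm38.p6, Mt2 lies at chr8:94172618-94173567 and Mt1 beside it at chr8:94178883-94180327. Slc30a1 lies at chr1:191906697-191913248, Slc39a10 at chr1:46807544-46925776 and Slc39a14 at chr14:70303467-70351452. RefSeq promoter windows, each from 250 bases before to 50 after a start in the promoter table, matched 4 of the 5 members, with 2 windows for Slc39a10. The start behind the Mt2 window is the first base of the locus given above, while those of Mt1 and Slc30a1 lie 206 and 84 bases inside their loci. The windows of the 3 genes named above as MTF1 targets are shown 5′ to 3′ on the plus strand, which is the strand of all 3 genes, because 2 of them, Mt1 and Mt2, varied together in these lungs. Capitals mark the metal response element core (TGCACNC or TGCGCNC, searched on both strands; a match to the minus strand reads in reverse complement).
Mt1 promoter, chr8:94178839-94179138: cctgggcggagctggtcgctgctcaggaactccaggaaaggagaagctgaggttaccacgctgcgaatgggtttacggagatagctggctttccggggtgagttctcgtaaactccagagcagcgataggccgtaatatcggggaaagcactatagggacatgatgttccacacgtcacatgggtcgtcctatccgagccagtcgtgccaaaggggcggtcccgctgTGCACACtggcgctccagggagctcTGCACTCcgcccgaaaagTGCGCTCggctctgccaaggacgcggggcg
Mt2 promoter, chr8:94172368-94172667: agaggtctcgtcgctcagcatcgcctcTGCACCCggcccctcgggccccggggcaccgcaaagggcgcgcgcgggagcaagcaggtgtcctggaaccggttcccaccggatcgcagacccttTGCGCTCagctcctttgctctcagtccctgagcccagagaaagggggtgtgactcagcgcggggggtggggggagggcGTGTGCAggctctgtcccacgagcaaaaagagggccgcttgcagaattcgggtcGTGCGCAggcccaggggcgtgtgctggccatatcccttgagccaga
Slc30a1 promoter, chr1:191906531-191906830: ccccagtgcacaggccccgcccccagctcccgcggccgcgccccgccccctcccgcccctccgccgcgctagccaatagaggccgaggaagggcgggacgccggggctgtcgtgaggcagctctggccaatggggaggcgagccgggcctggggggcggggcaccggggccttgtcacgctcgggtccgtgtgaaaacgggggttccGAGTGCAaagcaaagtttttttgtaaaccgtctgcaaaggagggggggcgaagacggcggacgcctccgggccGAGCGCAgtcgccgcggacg

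The Mt1 window held 3 cores, all on the plus strand, at -23, 3 and 21, counted from 1 at the start behind each window with the base before it at -1. The Mt2 window held 4, at -223 and -128 on the plus strand and at -50 and 5 on the minus strand, and the Slc30a1 window held 2, at -43 and 31, both on the minus strand. No core was found in either Slc39a10 window. Of 32851 promoter windows of this length, 25.7% held at least 1 core and 1.97% held 3 or more. The core of the antioxidant response element, TGACNNNGC on either strand, occurred once in the Mt2 window, at -79, and once in that of Slc30a1, at -82, and in 12.4% of all windows; it shared no base with the metal response cores. The half-site pair of STAT factors, TTCNNNGAA, was found in none of the Mt1, Mt2 and Slc30a1 windows. It occurred once in 1 of the 2 Slc39a10 windows, at -82, and in 8.3% of all windows. These matches describe the letters only.

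Values are log2 ratios of lung RNA, in the Cy5 channel, to a universal mouse reference RNA pooled from cell lines, in Cy3, so a level of 0 is the level in that reference. A change is a difference between 2 group means on the same scale. All 5 probes were well above background in both channels on all 35 arrays, and 0 of their values were missing or saturated. The probe of Mt1 gave median Cy5 signals of 9676 to 51462 over the arrays and that of Mt2 2705 to 58264.5. The transporters were dimmer, at 181 to 906 for Slc30a1, 125 to 532 for Slc39a10 and 155 to 755 for Slc39a14, against a local background near 73. Signals of different probes cannot be set against each other. Mt1 and Mt2 transcripts are closely related, and cross-hybridisation between their probes was not tested.

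All 7 markers of alveolar type 2 cells, a cell type of the lung, were above background on every array. Arrays are named here by the sample numbers of the labels, 1 to 35. 4 arrays stood apart, numbers 5 and 10 of NRCWE-043 at 18 µg and 6 and 23 of NRCWE-044 at 18 µg, which correlated with the median array at 0.866 to 0.928 against 0.94 to 0.987 for the other 31. Adipose markers, given as the mean log2 ratio of 6 tested markers, exceeded 2 on 8 arrays. These were 4 and 34 of NRCWE-044 at 54 µg, 9 and 19 of NRCWE-043 at 54 µg, 6, 11 and 23 of NRCWE-044 at 18 µg and 26 of NRCWE-043 at 18 µg. Results are given with and without both sets where they touch a call. In whole lung, fewer cells of a type and less RNA per cell cannot be told apart.

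Mt2 rose with NRCWE-044 at 54 µg, to a level 3.03-fold that of controls. Its log2 ratios in the controls were -1.94, -3.16, -2.93, -2.15 and -2.20, and with NRCWE-044 at 54 µg they were -1.12, -1.72, -0.20, -1.04 and -0.32. All 5 treated arrays lay above all 5 controls. The change was 1.60 on the log2 scale (SE 0.38, 95% interval 0.82 to 2.38, adjusted p = 0.0089 in limma, Benjamini-Hochberg over 25534 features), from -2.48 ± 0.54 to -0.88 ± 0.63 (SD, n = 5 each). In that comparison 3.92% of all features were called higher at an adjusted p under 0.05, and 3.76% lay wholly above the controls. Arrays 34 and 4 of this group carried adipose markers at 5.39 and 5.80, while array 24, the highest for Mt2, had them at 0.25. Array 24 was also the brightest of its group, with a median Cy5 signal of 230 against 92 to 133 on the others. Its share of probes above background, 69.3%, was the highest of all 35 arrays. Without the 8 arrays with adipose markers the change of Mt2 was 1.49 (adjusted p = 0.012). The call was lost without arrays 2, 4, 18, 29 and 34, which carried heart muscle or adipose markers (2.15, adjusted p = 0.092, n = 2 treated), without controls 7 and 29 (1.48, adjusted p = 0.058) and with median centring in place of loess (1.51, adjusted p = 0.17). Heart muscle markers (mean log2 ratio of 8 tested) were at 2.852, 2.367, 2.496 and 3.015 on arrays 2, 4, 18 and 29. Arrays 2, 4, 18, 29 and 34 were all controls or NRCWE-044 at 54 µg. Arrays of other groups stayed in the fit, among them 13, 20, 23 and 32 with heart muscle markers at 2.683, 2.26, 2.868 and 2.489. Arrays 9 and 19 stayed in too, with adipose markers at 4.849 and 3.332.

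With NRCWE-043 at 54 µg, Mt2 was at -1.55, -1.82, -1.46, -1.93 and -1.13. Every value was above the highest control, by a narrow margin for array 19 at -1.93 against control 2 at -1.94. The difference of 0.90 (SE 0.38, 95% interval 0.12 to 1.68) did not pass the test (adjusted p = 0.14 in limma). In this comparison 4.48% of features lay wholly above the controls. The difference passed without the 4 arrays that stood apart (0.90, adjusted p = 0.019 in limma) and without the 8 arrays with adipose markers (1.1, adjusted p = 0.034). Both sets were chosen after seeing the data. None of the 4 lay in these 2 groups, so the difference stayed at 0.90 while the spread shared by all groups was estimated anew. It also passed with array weights (adjusted p = 0.045) and when only these 2 groups were fitted (adjusted p = 0.029).

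NRCWE-045 at 54 µg gave Mt2 values of -1.39, -1.54, -1.37, -2.34 and -1.95. 3 of them were clearly above the controls. The value -2.34 lay inside the control range, and so did -1.946, just below the highest control at -1.944. The difference was 0.76 (SE 0.38, 95% interval -0.02 to 1.54, adjusted p = 0.56 in limma). Within slides that held both groups, Mt2 was higher than control by 1.00 to 1.23 with NRCWE-043 (2 slides), by 1.16 to 1.44 with NRCWE-044 (3 slides), and at -0.14 to 1.39 with NRCWE-045 (4 slides).

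At 18 µg no change of Mt2 passed the test. NRCWE-043 gave -3.12, -2.13, -2.62, -2.41 and -2.33 and NRCWE-045 gave -1.91, -2.33, -2.22, -2.23 and -2.74, both within or close to the control range. NRCWE-044 gave 0.19, -1.92, -3.10, -2.65 and -0.93, an SD of 1.33 against 0.30 to 0.63 in the other 6 groups. The high values 0.19 and -0.93 came from arrays 6 and 23, of the 4 that stood apart, and both also carried adipose markers, at 3.16 and 3.25; their part in the spread was not tested. The difference from control was 0.80 (SE 0.38, adjusted p = 0.45 in limma), and it ranged from 0.33 (without array 6) to 1.15 when single arrays were left out. It was -0.08 without the 4 arrays that stood apart, -0.40 without the 8 arrays with adipose markers and 0.14 with array weights (adjusted p of 0.98 to 1).

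No change of Mt1, whose gene is the neighbour of Mt2, passed the test against control. The control log2 ratios were -1.48, -2.02, -1.89, -1.77 and -1.53. With NRCWE-044 at 54 µg they were -1.36, -2.01, -0.94, -1.40 and -1.22, so that 4 of 5 arrays were above the control mean and array 18 was at the bottom of the control range. The difference was 0.35 (SE 0.23, 95% interval -0.11 to 0.81, adjusted p = 0.42 in limma). With NRCWE-043 at 54 µg, where Mt2 was 0.90 above control, Mt1 was at -2.14, -1.95, -1.70, -2.19 and -1.34, a difference of -0.13 (SE 0.23, adjusted p = 0.81). NRCWE-045 at 54 µg gave -1.55, -1.87, -1.27, -1.89 and -1.86 (difference 0.05, adjusted p = 0.98). At 18 µg the highest Mt1 values were again on arrays 6 and 23, at -0.41 and -1.13. The differences of Mt1 at 18 µg lay between -0.02 and 0.39, where 0.39, with NRCWE-044, became -0.17 without the 8 arrays with adipose markers, with adjusted p of 0.98, 0.52 and 1 for NRCWE-043, NRCWE-044 and NRCWE-045. No Mt1 result passed the test in any of the 18 comparisons of the main analysis.

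**Figure D1:**
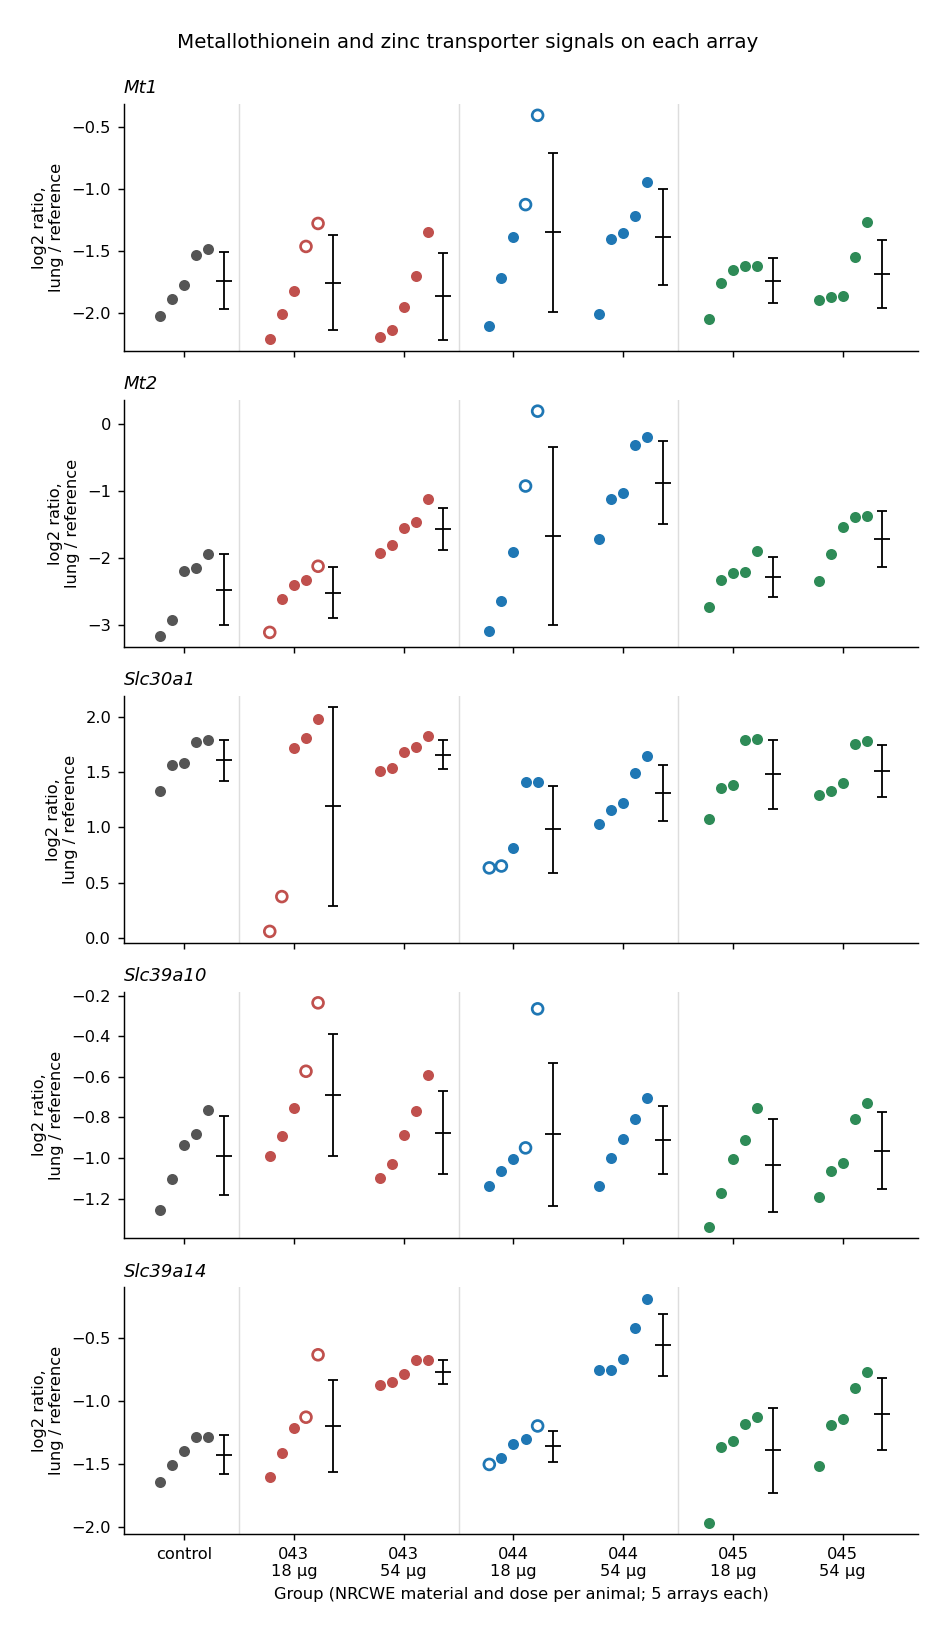
Log2 ratio of lung to reference RNA (vertical axes) for the 5 genes on each of 35 arrays, by group (horizontal axis); bars are mean ± SD of 5 arrays and open circles are arrays 5, 6, 10 and 23, which stood apart. All 5 points of Slc39a14 at 54 µg of NRCWE-043 and NRCWE-044 lie above the controls, Mt2 reaches -0.20 with NRCWE-044 at 54 µg, and the lowest Slc30a1 points are open circles.

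Slc30a1 encodes ZnT1, the zinc exporter of the plasma membrane. Its control log2 ratios were 1.33, 1.58, 1.79, 1.78 and 1.57. The 54 µg groups gave 1.83, 1.51, 1.54, 1.69 and 1.73 for NRCWE-043, 1.03, 1.65, 1.22, 1.16 and 1.50 for NRCWE-044 and 1.79, 1.33, 1.29, 1.40 and 1.76 for NRCWE-045. Each group overlapped the controls, and with NRCWE-044 3 of the 5 values were below the lowest control. Where Mt2 rose, with NRCWE-044 at 54 µg, Slc30a1 was at -0.30 relative to control (SE 0.25, 95% interval -0.81 to 0.21, adjusted p = 0.58 in limma), and it was below the control mean on 4 of 5 arrays.

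At 18 µg, Slc30a1 was low on the arrays that stood apart. NRCWE-043 gave 0.06, 0.37, 1.99, 1.81 and 1.73, where the first 2 values were arrays 5 and 10 and the other 3 were at or above the control median. NRCWE-044 gave 0.65, 0.81, 1.41, 1.41 and 0.63, with 0.65 and 0.63 from arrays 6 and 23. All 5 of these were below the control mean, and the difference was -0.63 (SE 0.25, 95% interval -1.14 to -0.12, adjusted p = 0.42 in limma), or -0.40 without the 4 arrays that stood apart and -0.20 without the 8 with adipose markers. NRCWE-045 gave 1.07, 1.81, 1.36, 1.79 and 1.38, a difference of -0.13 (adjusted p = 1). Without the 4 arrays Slc30a1 was lower with NRCWE-044 than with NRCWE-043 at 18 µg, at -0.63 (SE 0.19, adjusted p = 0.03), against -0.21 (adjusted p = 0.66) with them.

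Slc39a14, also called ZIP14, an importer of zinc that also carries non-transferrin iron and manganese, rose with 2 of the 3 materials at 54 µg. Its control log2 ratios were -1.29, -1.29, -1.50, -1.64 and -1.39. With NRCWE-043 at 54 µg they were -0.67, -0.87, -0.67, -0.85 and -0.78, and with NRCWE-044 at 54 µg -0.75, -0.75, -0.19, -0.66 and -0.42. Neither treated group overlapped the controls. Wholly above the controls lay 4.48% of features with NRCWE-043 and 3.76% with NRCWE-044. The NRCWE-043 group was tight, with an SD of 0.09. The rise was 0.65 with NRCWE-043 (1.57-fold, SE 0.15, 95% interval 0.34 to 0.97, adjusted p = 0.0051 in limma), where 5.36% of features were called higher. It was 0.87 with NRCWE-044 (1.82-fold, SE 0.15, 95% interval 0.55 to 1.18, adjusted p = 0.00059 in limma), where 3.92% of features were called higher. Both calls held when any single array was left out, at 0.60 to 0.69 and 0.78 to 0.92.

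With NRCWE-045 at 54 µg, Slc39a14 was at -0.90, -0.77, -1.14, -1.19 and -1.52. The first 4 values were above all controls and -1.52 was within their range. The difference of 0.32 (SE 0.15, 95% interval 0.01 to 0.63) did not pass the test (adjusted p = 0.51 in limma), in a comparison where 0.29% of all features were called higher. Within slides, Slc39a14 was above control by 0.61 to 0.74 with NRCWE-043, by 0.53 to 0.75 with NRCWE-044 and by 0.21 to 0.73 with NRCWE-045. The rise with NRCWE-044 was not called with median centring (0.77, adjusted p = 0.35) or without arrays 2, 4, 18, 29 and 34 (0.97, adjusted p = 0.06). Without the 8 arrays with adipose markers both calls at 54 µg held, at 0.71 with NRCWE-043 (adjusted p = 0.033) and 0.89 with NRCWE-044 (adjusted p = 0.019).

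At 18 µg, Slc39a14 stayed within 0.03 to 0.22 of control on the log2 scale with the 3 materials, and none of the 3 differences passed the test (adjusted p of 0.45 to 1 in limma). NRCWE-044 gave -1.50, -1.30, -1.45, -1.34 and -1.20, NRCWE-043 -1.13, -0.63, -1.60, -1.21 and -1.41, and NRCWE-045 -1.13, -1.31, -1.37, -1.18 and -1.97. The one high value, -0.63, was array 10, of the 4 that stood apart.

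Slc39a10, or ZIP10, another importer of zinc at the plasma membrane, passed the test in no comparison. Its control log2 ratios were -1.10, -0.94, -0.76, -1.25 and -0.88, and the 54 µg groups ran from -1.10 to -0.59, from -1.14 to -0.70 and from -1.19 to -0.73 in the order of the materials. The differences at 54 µg were 0.11, 0.08 and 0.02, with 95% intervals that together reached from -0.28 to 0.42. At 18 µg, NRCWE-043 gave -0.24, -0.57, -0.89, -0.99 and -0.76 (difference 0.30, SE 0.15, adjusted p = 0.27 in limma), where -0.24 and -0.57 were arrays 5 and 10, and the difference was 0.11 without the 4 arrays that stood apart. NRCWE-044 gave -0.27, -1.06, -1.0, -1.14 and -0.95 and NRCWE-045 -1.0, -0.91, -0.75, -1.17 and -1.34, with differences of 0.10 (adjusted p = 0.81) and -0.05 (adjusted p = 1).

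Against control, 1 of 5 members was called with NRCWE-043 at 54 µg, 2 of 5 with NRCWE-044 at 54 µg and 0 of 5 in the other 4 comparisons. Over all features, 10.3% were called in either direction with NRCWE-043 at 54 µg, 5.95% with NRCWE-044 and 0.325% with NRCWE-045. At 18 µg 4.21% were called with NRCWE-043 and 0% with NRCWE-044 or NRCWE-045, where limma gave 2765 and 706 features an unadjusted p under 0.05, 2 of them members with NRCWE-044 (Mt2 and Slc30a1) and none with NRCWE-045.

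**Figure D2:**
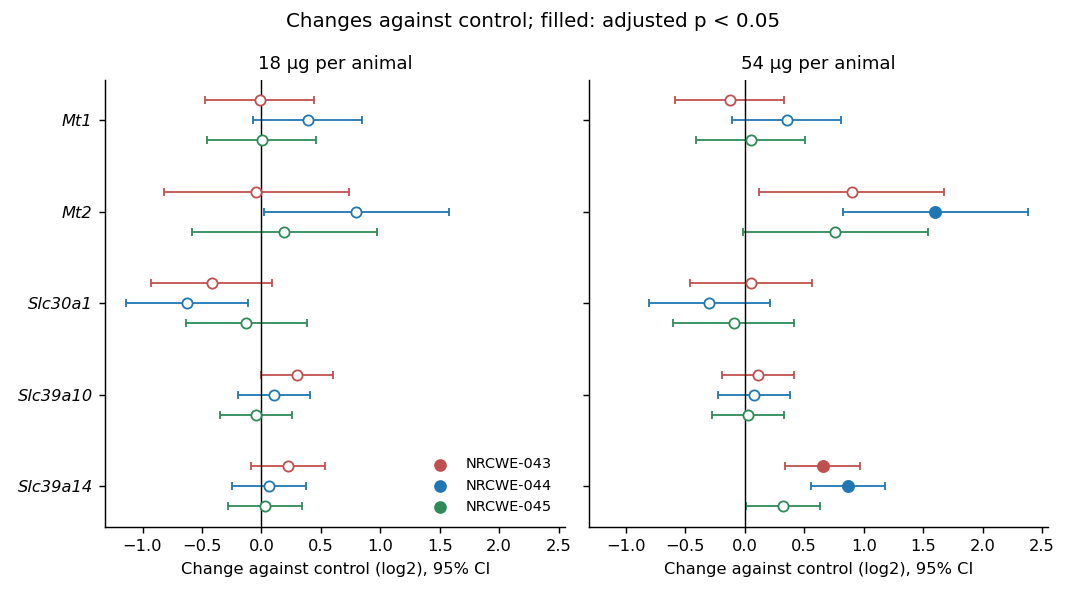
Change against control on the log2 scale (horizontal axes) with 95% intervals for the 5 genes, at 18 µg (left) and 54 µg (right), coloured by material; filled points had an adjusted p under 0.05. The filled points are Mt2 with NRCWE-044 and Slc39a14 with NRCWE-043 and NRCWE-044, all at 54 µg.

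The step from 18 to 54 µg asked whether the higher dose differed from the lower one within a material. Slc39a14 rose over this step with NRCWE-044, by 0.80 (SE 0.15, 95% interval 0.49 to 1.11, adjusted p = 0.0011 in limma), and the 2 dose groups did not overlap. In this comparison 6.52% of features were called in either direction and 4.9% higher, and 3.75% lay wholly above. The step of Slc39a14 was 0.43 with NRCWE-043 (SE 0.15, adjusted p = 0.17, background 1.16% called) and 0.29 with NRCWE-045 (SE 0.15, adjusted p = 1, background 0% called, with 975 features at an unadjusted p under 0.05, none of them a member). Without the 8 arrays with adipose markers the NRCWE-044 step was 0.86 and was not called (adjusted p = 0.075), nor was it with median centring (0.75, adjusted p = 0.30).

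For Mt2 the dose step was 0.94 with NRCWE-043, 0.80 with NRCWE-044 and 0.57 with NRCWE-045, each with SE 0.38, and none passed the test (adjusted p of 0.23, 0.23 and 1 in limma). With NRCWE-043 all 5 arrays at 54 µg were above all 5 at 18 µg, as were 1.68% of features. The NRCWE-044 step of Mt2 depended on the arrays that stood apart: it was 1.68 without all 4 (adjusted p = 0.00048) and 1.27 without array 6 alone (adjusted p = 0.015). It was also called with array weights (1.42, adjusted p = 0.0031), and without array 17 it was 0.45 (adjusted p = 0.51). No dose step differed between materials for any member (adjusted p of 1 throughout in limma). Over all features 0% passed in these 3 contrasts, in which 836, 907 and 1144 had an unadjusted p under 0.05. The nearest was Slc39a14, whose step with NRCWE-045 differed from that with NRCWE-044 by -0.51 (SE 0.22, unadjusted p = 0.0238).

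The materials were compared in 3 pairs at each dose, 6 comparisons in all. None of the 5 members passed the test in any of them. Of all features, 10.9% (NRCWE-044 against NRCWE-043), 8.54% (NRCWE-045 against NRCWE-043) and 0.45% (NRCWE-045 against NRCWE-044) were called at 18 µg, and 7.6%, 5.4% and 0% at 54 µg. At 54 µg Slc39a14 was lower with NRCWE-045 than with NRCWE-044, at -0.55 (SE 0.15, 95% interval -0.86 to -0.23), and the 2 groups did not overlap, as for 0.581% of features that lay wholly below. This difference had an unadjusted p of 0.00113 and an adjusted p of 0.27 in limma, and 0 features passed in that comparison against 1546 at an unadjusted p under 0.05. Mt2 differed by -0.84 between the same groups (95% interval -1.62 to -0.06, adjusted p = 0.77). NRCWE-044 stood above NRCWE-043 at 54 µg by 0.70 for Mt2 (95% interval -0.08 to 1.48, adjusted p = 0.34), 0.48 for Mt1 (95% interval 0.02 to 0.94, adjusted p = 0.25) and 0.21 for Slc39a14 (95% interval -0.10 to 0.53, adjusted p = 0.53). NRCWE-045 against NRCWE-043 at 54 µg gave -0.14 for Mt2 (95% interval -0.92 to 0.64) and -0.33 for Slc39a14 (95% interval -0.65 to -0.02, adjusted p = 0.27). With median centring the differences of NRCWE-044 from NRCWE-043 at 54 µg were 0.19 for Mt2 and -0.03 for Mt1. A p that missed the threshold does not show that the materials acted alike.

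At 18 µg the widest gap was Mt2 between NRCWE-044 and NRCWE-043, at 0.84 (SE 0.38, adjusted p = 0.16 in limma). It was 1.20 and called without array 17 (adjusted p = 0.035) and 0.37 without array 6. The gap was reversed, and not called, without the 4 arrays that stood apart (-0.10, adjusted p = 0.91) and without the 8 with adipose markers (-0.32, adjusted p = 0.62). Slc39a10 was lower with NRCWE-045 than with NRCWE-043, at -0.35 (SE 0.15, adjusted p = 0.15), and Slc30a1 was higher with NRCWE-045 than with NRCWE-044 by 0.50 (SE 0.25, adjusted p = 0.39). Without the 4 arrays these were -0.16 and 0.27.

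Ordered by group mean, Mt2 ran from -2.52 with NRCWE-043 at 18 µg through control (-2.48), NRCWE-045 at 18 µg (-2.28), NRCWE-045 at 54 µg (-1.72), NRCWE-044 at 18 µg (-1.68) and NRCWE-043 at 54 µg (-1.58) to -0.88 with NRCWE-044 at 54 µg. Slc39a14 ran from control (-1.42) through the 18 µg groups of NRCWE-045 (-1.39), NRCWE-044 (-1.36) and NRCWE-043 (-1.20), to the 54 µg groups of NRCWE-045 (-1.10), NRCWE-043 (-0.77) and NRCWE-044 (-0.56). Mt1 ran from -1.86 with NRCWE-043 at 54 µg to -1.35 with NRCWE-044 at 18 µg, Slc30a1 from 0.98 with NRCWE-044 at 18 µg to 1.66 with NRCWE-043 at 54 µg, and Slc39a10 from -1.04 with NRCWE-045 at 18 µg to -0.69 with NRCWE-043 at 18 µg. Neighbours in all 5 orders overlapped. The gap between neighbours exceeded the larger of their SDs only for Mt2 from NRCWE-045 at 18 µg to NRCWE-045 at 54 µg (0.57) and from NRCWE-043 to NRCWE-044 at 54 µg (0.70), and for Slc39a14 from NRCWE-045 to NRCWE-043 at 54 µg (0.33).

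The members did not all vary together. Over the 35 arrays Mt1 and Mt2 correlated at r = 0.703 (Spearman's rho 0.588), and at 0.80 once each group's mean was removed. Mt2 and Slc39a14 correlated at 0.579 over 35 arrays and at 0.839 over the 31 without those that stood apart, and within groups at 0.292 and 0.534. Array 6 was high for Mt2 (0.19) and low for Slc39a14 (-1.50). Slc30a1 ran against Mt1, at -0.597 over 35 arrays and -0.492 over 31. The other 7 pairs lay between -0.43 and 0.246. These correlations are descriptions: the points share slides, the reference RNA and treatment groups.

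**Figure D3:**
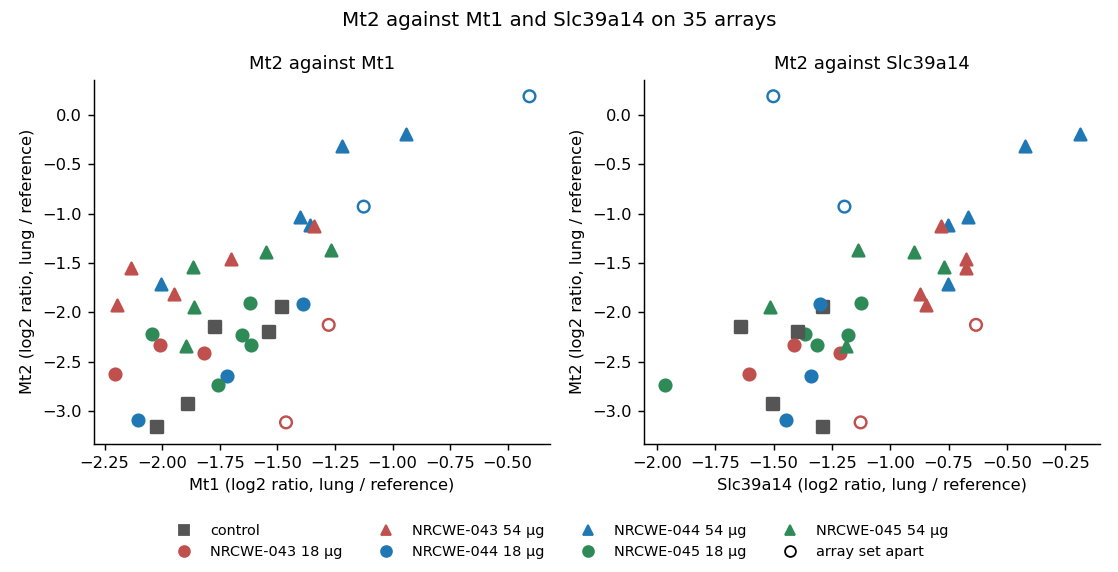
Log2 ratio of Mt2 (vertical axes) against Mt1 (left) and Slc39a14 (right), 1 symbol per array, coloured by material, with controls as squares, 18 µg as circles, 54 µg as triangles and the 4 arrays that stood apart as open circles. Array 6 lies at the top of both plots, at the high end of Mt1 and the low end of Slc39a14.

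Among 15302 named genes with values on all arrays, those most like Slc39a14 over the 35 arrays were Pdia6 (r = 0.884), Sdf2l1 (0.851), C1ra (0.827), Serpina3m (0.826) and Pdia4 (0.825). Pdia6 and Pdia4 encode protein disulfide isomerases of the endoplasmic reticulum, Sdf2l1 a chaperone component there, and C1ra a complement protease. Within groups these 5 correlations were 0.428 to 0.672. Those most like Mt2 were the gene model Gm6981 (0.836), the nuclear pore gene Nup50 (0.80), Fdps of isoprenoid synthesis (0.785), Psat1 of serine synthesis (0.771) and Ppa1, a pyrophosphatase (0.771). Among those most like Mt1 were Gm5523 (0.753), the muscle filamin Flnc (0.743), Gm6498 (0.734) and Atp5g2, an ATP synthase subunit (0.723). Over the 31 arrays without those that stood apart, these Mt1 correlations fell to 0.623, 0.674, 0.572 and 0.639.

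For the other 2 members likeness also rested in part on the 4 arrays that stood apart. Slc30a1 was most like Ap3m2 (0.907), Plekha2 (0.892), Kcp (0.885), Abcb10 (0.878) and Sh3rf1 (0.878), and these fell to between 0.63 and 0.722 over the other 31 arrays. Slc39a10 was most like Myo19 (0.759), Ugp2 (0.757), Nars (0.755), Kansl2 (0.735) and Sdc1 (0.732), which fell to between 0.512 and 0.603.

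The other genes of zinc handling form a list of 24 (Mt3, Mt4, the sensor Mtf1, 9 exporters and 12 importers), of which 19 were tested; Mt4, Slc30a3, Slc30a8, Slc30a10 and Slc39a12 did not pass the filter on dim probes. Against control at 54 µg, 2 of the 19 rose with NRCWE-043, 1 with NRCWE-044 and 0 with NRCWE-045, and none fell. Over all features 5.36%, 3.92% and 0.29% were called higher, so these counts are near the background. Their median changes were 0.17, 0.12 and 0.13 on the log2 scale, against 0.01, 0.00 and 0.01 over all features. At 18 µg 0 of 19 passed with any material, and the median changes were 0.08, -0.05 and 0.03. Of all features, 4.21%, 0% and 0% were called there. Mtf1 itself was at 0.14 with NRCWE-043, -0.14 with NRCWE-044 and 0.05 with NRCWE-045 at 54 µg (adjusted p of 0.59 to 0.97 in limma), and Mt3 at 0.23, 0.12 and -0.12 (adjusted p of 0.53 to 0.94).

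The importers that passed against control were Slc39a8, Slc39a7 and Slc39a1. Slc39a8, or ZIP8, which carries zinc and manganese and is most like Slc39a14 in its family, rose by 0.56 with NRCWE-043 at 54 µg (SE 0.17, adjusted p = 0.034 in limma). Its log2 ratio went from 4.91 ± 0.33 to 5.47 ± 0.20 (SD, n = 5 each). Slc39a7, or ZIP7, which releases zinc from the endoplasmic reticulum, rose by 0.48 in the same comparison (SE 0.14, adjusted p = 0.022). Slc39a1 rose with NRCWE-044 at 54 µg by 0.54 (SE 0.14, adjusted p = 0.014), from 0.46 ± 0.22 to 1.00 ± 0.11 (SD, n = 5 each). The call of Slc39a8 was lost without any one of arrays 2, 3, 9, 15, 22 and 30 (0.45 to 0.55, adjusted p of 0.062 to 0.12), that of Slc39a7 without array 3 or 15 (0.43 and 0.42, adjusted p of 0.062 and 0.074), and those of Slc39a7 and Slc39a1 without arrays 2, 4, 18, 29 and 34 (0.50 and 0.70, adjusted p of 0.088 and 0.15).

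Over the dose step of NRCWE-044, Slc39a8 rose by 0.95 (SE 0.17, adjusted p = 0.00064 in limma), Slc39a1 by 0.57 (adjusted p = 0.008) and Slc30a7, which loads zinc into the Golgi, by 0.44 (adjusted p = 0.032). Slc39a8 at 18 µg was lower with NRCWE-044 than with NRCWE-043, at -0.85 (SE 0.17, adjusted p = 0.0012). Both Slc39a8 calls were lost without the 8 arrays with adipose markers, at 0.54 (adjusted p = 0.24) and -0.51 (adjusted p = 0.13). That of Slc30a7 was lost there too (0.17, adjusted p = 0.80) and without any one of arrays 4, 6, 11, 23, 24 and 34 (0.37 to 0.45). The exporter Slc30a4 was higher than with NRCWE-043 at 18 µg with both NRCWE-044 (0.60, SE 0.12, adjusted p = 0.00059) and NRCWE-045 (0.59, SE 0.12, adjusted p = 0.0008), and at 54 µg with NRCWE-044 (0.41, adjusted p = 0.02), a call lost without array 3, 4, 9 or 18 (0.33 to 0.39). None of the calls of Slc39a8, Slc39a7, Slc39a1, Slc30a7 and Slc30a4 given here held with median centring (adjusted p of 0.15 to 1). Its level with NRCWE-043 was -1.58 ± 0.16 at 18 µg, against -1.23 ± 0.21 in controls, a difference that was not called (adjusted p = 0.076).

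**Figure D4:**
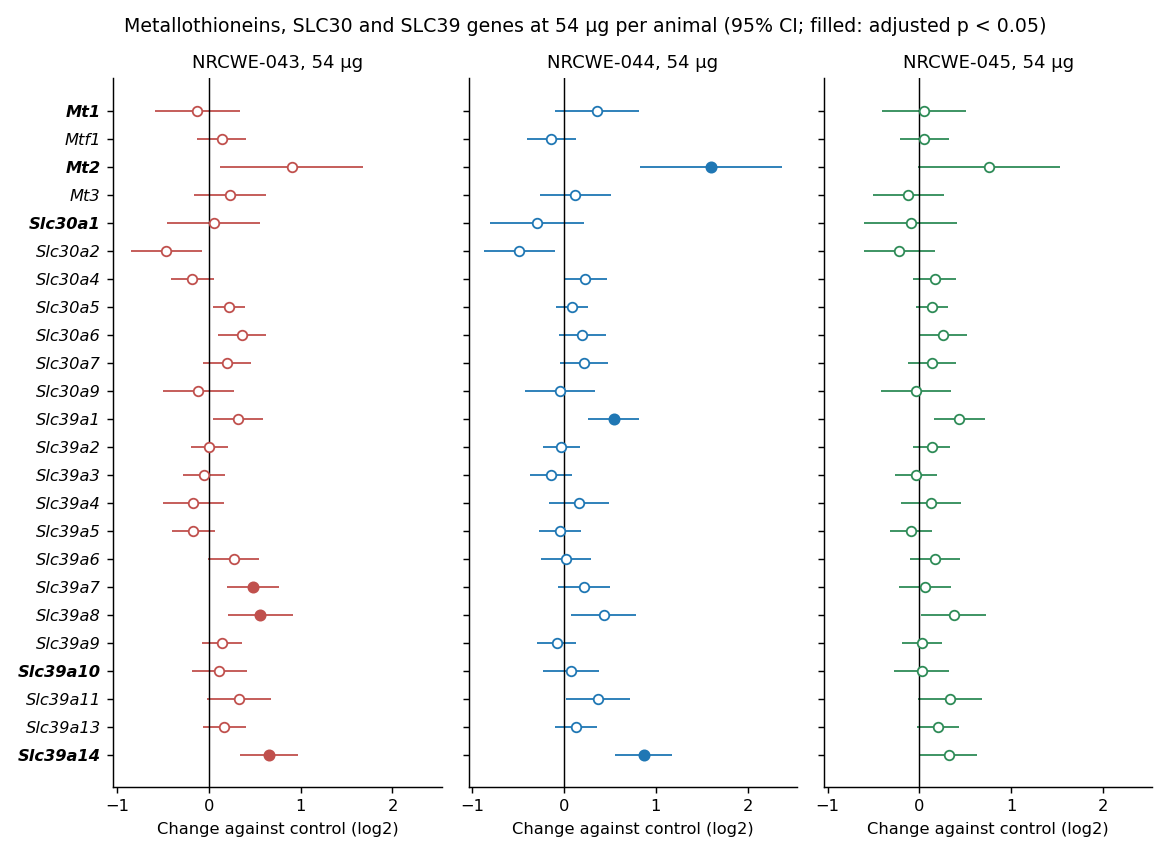
Change against control on the log2 scale with 95% intervals (horizontal axes) at 54 µg, 1 panel per material. The vertical axis holds the 5 members (bold) and the 19 other genes of zinc handling tested, Mtf1 among them. Points are filled where the adjusted p in limma was under 0.05. Filled points besides the members are Slc39a7 and Slc39a8 with NRCWE-043 and Slc39a1 with NRCWE-044, and no point is filled with NRCWE-045.

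Of 19 tested genes of iron and copper handling, 5 rose at 54 µg with NRCWE-043, 4 with NRCWE-044 and 1 with NRCWE-045, against 5.36%, 3.92% and 0.29% of all features called higher, and none fell; the median changes were 0.06, -0.06 and 0.03. Hmox1, the heme-degrading enzyme, was 2.71 above control with NRCWE-043 (SE 0.32, adjusted p = 4.1e-06 in limma), and it was lower with NRCWE-044 than with NRCWE-043, at -3.0 (SE 0.32, adjusted p = 1.1e-07). Steap4, a metalloreductase, rose by 1.25 with NRCWE-043 and 0.97 with NRCWE-044, and the copper-carrying ferroxidase Cp by 1.06 and 1.13. The transferrin receptor gene Tfrc rose with all 3, by 0.61, 0.61 and 0.52 (adjusted p of 0.00017, 0.00035 and 0.02). The Tfrc call with NRCWE-045 was lost in 7 of 20 other settings, among them the deposited ratios (0.47, adjusted p = 0.056), and without any one of arrays 2, 7, 8, 14, 30 and 32 (0.48 to 0.56, adjusted p of 0.052 to 0.09). With median centring Tfrc was called with no material. With NRCWE-043 at 18 µg Hmox1 and Cp rose, by 2.23 and 1.02, and Sod1, the copper-zinc superoxide dismutase, fell by 0.91 (adjusted p = 0.035), while all 5 members failed the test there. The Sod1 call was lost in 7 of 20 other settings, with a change of -0.29 (adjusted p = 0.33) without the 4 arrays that stood apart, and without any one of arrays 2, 5, 10, 15, 29 and 30 (-0.90 to -0.64). Cp was not called there without array 10 or 15 (0.93 and 0.91, adjusted p of 0.063 and 0.061). In 3 of 20 other settings the call of Cp with NRCWE-043 at 18 µg was lost too (adjusted p up to 0.52 in limma). That of Hmox1 was lost in 1 of 20 (adjusted p = 0.099).

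Of 14 genes known to answer interleukin 6 and STAT3, 7 rose with NRCWE-043, 8 with NRCWE-044 and 3 with NRCWE-045 at 54 µg. None fell, and over all features 5.36%, 3.92% and 0.29% were called higher. At 18 µg 0 of the 14 passed with any material. Of all features, 4.21% were called at 18 µg with NRCWE-043 and 0% with NRCWE-044 and NRCWE-045. The median changes at 54 µg were 0.47, 0.52 and 0.48. Il6 itself rose by 1.18 with NRCWE-043 (adjusted p = 0.0038 in limma) and 0.98 with NRCWE-044 (adjusted p = 0.023). Socs3, the feedback inhibitor of the pathway, rose by 0.77 with NRCWE-043 (adjusted p = 0.0039) and 0.71 with NRCWE-044 (adjusted p = 0.011). Saa3 and Timp1 led the list in all 3 comparisons, with Saa3 at 6.80, 7.03 and 4.77. With NRCWE-045 the Saa3 call (adjusted p = 0.032) was lost without any one of arrays 2, 7, 8, 14, 15, 30 and 32 (4.15 to 4.70), and that of Timp1 (2.56, adjusted p = 0.038) without any one of these or array 28 (2.27 to 2.60). The Il6 call with NRCWE-044 was lost without array 4, 30 or 34 (0.86 to 0.92), and without the 8 arrays with adipose markers Il6 was called with neither material (0.99 and 0.81, adjusted p of 0.072 and 0.25). The mean log2 ratio of the 14 genes correlated over 35 arrays with Slc39a14 at r = 0.803 and with Mt2 at 0.63 (0.484 and 0.497 within groups), and with Mt1 at 0.147. The list was chosen with earlier results of these data known and is no independent evidence of a direction.

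Of 11 glucocorticoid-responsive genes, 1 rose and 2 fell with NRCWE-043 at 54 µg, as did 1 and 2 with NRCWE-044, and the median changes were -0.41 and -0.39. Over all features 5.36% were called higher and 4.9% lower with NRCWE-043, and 3.92% and 2.03% with NRCWE-044. The gene that rose in both was Lcn2, by 1.41 and 1.72, which inflammatory signals also raise. Those that fell were Ddit4 (-1.27) and Tsc22d3 (-1.05) with NRCWE-043, and the clock gene Per1 (-0.92) and Klf9 (-0.79) with NRCWE-044. All 4 of these falls were not called without the 8 arrays with adipose markers (-1.09, -0.80, -0.72 and -0.67) or with median centring, and Per1 was at -0.27 without arrays 2, 4, 18, 29 and 34. The Tsc22d3 call was also lost without array 2, 15, 19 or 30 (-0.98 to -0.90). 0 of 11 passed with NRCWE-045 at 54 µg or with any material at 18 µg. Over all features 0.325% were called with NRCWE-045 at 54 µg. At 18 µg the shares were 4.21% with NRCWE-043 and 0% with NRCWE-044 and NRCWE-045. The list's mean log2 ratio correlated with Mt1 at 0.451, with Mt2 at 0.026 and with Slc39a14 at -0.231 over 35 arrays.

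Markers of some other cells moved in the same comparisons. Neutrophil markers at 54 µg had 3 of 6 higher and 1 lower with NRCWE-043, 1 higher with NRCWE-044 and 0 with NRCWE-045, and their mean log2 ratio was 1.36 to 2.69 in controls, 2.73 to 3.11 with NRCWE-043, 2.51 to 3.36 with NRCWE-044 and 1.98 to 3.23 with NRCWE-045. Club cell markers had 4 of 4 lower with NRCWE-043 and 1 with NRCWE-044. Monocyte markers had 2 of 4 higher and 1 lower with NRCWE-043, and 1 higher with NRCWE-044. Alveolar macrophage markers had 2 of 6 higher with NRCWE-044. Alveolar type 1 markers had 2 of 5 higher with NRCWE-043 and 1 with NRCWE-044. Fibroblast markers had 1 of 5 lower with NRCWE-043. Of all features, 5.36% were called higher and 4.9% lower with NRCWE-043, 3.92% and 2.03% with NRCWE-044, and 0.29% and 0.0352% with NRCWE-045. Adipose (6 tested), heart muscle (8) and liver (4) markers had 0 called at 54 µg. The adipose median changes were nevertheless 1.00, 1.59 and -0.36 with NRCWE-043, NRCWE-044 and NRCWE-045. Their mean log2 ratio ran from 0.22 to 4.85 with NRCWE-043 and from 0.25 to 5.80 with NRCWE-044. Markers of alveolar type 2, ciliated, endothelial, lymphocyte, mast and erythroid cells also had 0 called at 54 µg. The part of any of these cell types in the changes of Slc39a14 and Mt2 was not tested.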

How the data were processed

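Lung RNA (Cy5) and a universal mouse reference RNA (Cy3) were hybridised in 1 orientation on 35 2-colour arrays, from 200 ng of RNA each. The scanner files hold spot intensities extracted with Feature Extraction 11.0.1.1, per the file headers. The series values were deposited by the authors as log2 ratios, and no source used here names their normalization; they correlated at 0.993 to 0.999 with the ratios used here, in the same direction, with column medians of -0.04 to 0.018, and served as an alternative. Median intensities were corrected with normexp (offset 50) and loess-normalized within arrays in limma 3.58.1 (R 4.3.3, data.table package in version 1.17.8; figures with Python 3.11.15, pandas 2.3.3 and matplotlib 3.10.9). Non-control spots numbered 59305, and spots marked as outliers were left out. Probes were named through RefSeq accessions (27235 of 55681 matched a symbol). A probe entered the tests if its Cy5 signal was well above background on 3 or more of the 5 arrays in some group; the brightest probe stood for a gene, giving 25534 features. A group-means model of all 35 arrays (limma lmFit and eBayes) gave changes and p-values for 18 comparisons, adjusted by the Benjamini-Hochberg method within each and called under 0.05. On the arrays 42.8 to 69.3% of probes were well above background, and 5 arrays per group limit the precision. The 7 slides were tested as a block and within slides; controls lay on 4.

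The members and gene lists were chosen with earlier results of these data known. Genes named are the members, up to 4 called genes of each list and comparison by size of change, and the 5 genes most correlated with each member, of which 1 is not reported here; Mtf1 and Mt3 were named after their values were seen, and so was Tfrc. Alternatives changed the background correction, normalization, values used, filter, probe summary, marked spots, slide handling, arrays in the fit and variance model, and left out each array in turn; 2 of those that leave out arrays were chosen after seeing the data. Motif letters were searched in RefSeq promoters of GRCm38.p6. The procedure was tested on simulated data.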

Additional observations from a re-analysis of the deposited data

Results flagged for a closer look

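Over the 5 members, 35 groups of 5 arrays were searched for a sample far from the other 4 by Dixon's ratio (critical value 0.71), and 2 were found, where chance alone gives about 1 in 20. Slc39a10 on array 6 of NRCWE-044 at 18 µg was the highest of its group, at -0.27 against -0.95 for the next. Slc39a14 on array 27 of NRCWE-045 at 18 µg was the lowest of its group, at -1.97 against -1.37 for the next. Array 6 is 1 of the 4 that stood apart, and array 27 is not.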

How the results depend on the processing

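No paired analysis was possible because each sample number in the labels occurs once. The count of members called moved in 5 comparisons. For NRCWE-044 at 54 µg against control it went from 2 to 0 with median centring, to 1 without controls 7 and 29 and to 0 without arrays 2, 4, 18, 29 and 34. For the dose step of NRCWE-044 it went from 1 to 0 with median centring, to 2 with array weights, to 2 without arrays 5, 6, 10 and 23, and it was 1 to 2 when single arrays were left out (2 without array 6). For NRCWE-043 at 54 µg it went from 1 to 2 when only the groups compared were fitted, with array weights, without arrays 5, 6, 10 and 23, and without the 8 arrays with adipose markers, each time through Mt2. For the dose step of NRCWE-043 it went from 0 to 1 with array weights (Slc39a14 0.55, adjusted p = 0.031 in limma). For NRCWE-044 against NRCWE-043 at 18 µg it went from 0 to 1 without arrays 5, 6, 10 and 23, and it was 0 to 1 when single arrays were left out. Without the 8 arrays with adipose markers the 1 call in the NRCWE-044 step passed from Slc39a14 to Mt2 (1.89, adjusted p = 0.011). Among the other genes named, Slc30a4 in NRCWE-044 against NRCWE-043 at 54 µg reversed with median centring, to a change that rounds to 0 (adjusted p = 0.99). No member call changed sign. Of the member results under alternatives, 4740 kept direction and side of the threshold, 192 uncalled values changed sign, 11 passed and 7 lost the threshold. Median centring moved the median of all features to 0.122 with NRCWE-043 at 54 µg, from 0.008, and left 529 of 2618 calls there (356 higher, against 1368), 47 of 1520 with NRCWE-044 (45 higher, against 1001) and 0 of 83 with NRCWE-045; the cause was not tested. Calls over all features at 54 µg also fell without arrays 2, 4, 18, 29 and 34, to 1591 with NRCWE-043 and 67 with NRCWE-044, where fewer samples were fitted. With single arrays left out they ran from 1452 to 3099, 753 to 1793 and 0 to 222 for the 3 materials.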
